A study of Mus musculus with 6 samples.

Results

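Aquaporins are membrane channels that let water cross cell membranes along an osmotic gradient, and a subgroup of them, the aquaglyceroporins, also pass glycerol. In the heart, Aqp1 is known from capillary endothelium and red blood cells, Aqp4 is a water channel that the dystrophin complex anchors in the membrane of muscle and glia, and Aqp7 is an aquaglyceroporin of adipocytes that also serves glycerol uptake by the heart. The results below cover these 3 genes, out of 19057 genes named on the arrays, by all 9 of their probes out of 45281. The genes were chosen by symbol, and Aqp4 was chosen because its level was low on the transgenic TAC arrays; its values on those arrays are therefore a description and carry no test. Aqp1 and Aqp7 were added as the relatives known from the heart.

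Total RNA from hearts of FvB mice was hybridised to 6 Illumina bead arrays, 3 weeks after sham surgery or thoracic aortic constriction (TAC), a band around the aorta that loads the left ventricle with pressure. There were 1 wild-type sham, 2 wild-type TAC, 1 JMJD2a transgenic sham and 2 JMJD2a transgenic TAC arrays. The transgene carries a histone demethylase (mouse gene Kdm4a) and is described as specific to the heart; the sources used here do not name its promoter. The age is 8 weeks in the sample labels and is written in years in the series' design text. Whether each array holds 1 animal or several pooled is not stated, and the p-values cover only the scatter of these samples, which could be technical. The comparisons below share arrays with each other and are given side by side for that reason.

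The values are deposited intensities on a linear scale, with medians of 56.3 to 56.4 and the same highest value of 25873 on each array. Pairs of arrays correlated at r = 0.984 to 0.994 over all probes. Probes scattered with an SD of 0.200 (log2) within the wild-type TAC pair and 0.306 within the transgenic TAC pair. The transgenic TAC pair had the lowest r (0.984) and the largest SD of all pairs. Transgenic TAC 2 was closer to wild-type TAC 1 and TAC 2 (r = 0.990 with each, SD 0.241 and 0.239) than to transgenic TAC 1. Xist, the RNA of the silenced X chromosome, stood at log2 5.38 in wild-type TAC 2 and 5.41 in transgenic sham and at 10.36 to 11.03 on the remaining 4; sex is not given. The brightest Kdm4a probe lay between 6.45 and 6.75 on all arrays. A second Kdm4a probe lay at 6.40 to 6.49 in wild type and at 7.03, 6.86 and 6.32 in transgenic sham, TAC 1 and TAC 2, so these probes do not check the genotype labels. By both probes transgenic TAC 2 had the lowest value of the 6 arrays. All 9 cardiomyocyte markers on the arrays, such as Myh6 and Tnni3, lay above the intensity filter, with a summed intensity between 116620 and 127007 on the 6 arrays; genes near the highest value of the arrays carry most of that sum.

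Aqp4 was low on both transgenic TAC arrays and nearly level on the remaining 4, by the brighter of its 2 probes. Its intensity (probe ILMN_2757232) was 167 on the wild-type sham array, 168 and 161 on the wild-type TAC arrays, 153 on the transgenic sham array and 67.4 and 59.1 on the transgenic TAC arrays. The 4 other arrays thus lay within a narrow band, and both transgenic TAC arrays lay close to the array median. On the log2 scale the wild-type TAC arrays averaged 7.36 ± 0.042 (SD, n = 2) and the transgenic TAC arrays 5.98 ± 0.13 (SD, n = 2), a difference of -1.38 or 2.60-fold. Against the transgenic sham array the difference was -1.28 (2.42-fold). The TAC response of transgenic hearts minus that of wild-type hearts was -1.25.

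The gap between the higher transgenic TAC array and the lowest of the 4 other arrays was 1.18 on the log2 scale for Aqp4. Of 11167 tested genes, 803 (7.19%) had both transgenic TAC arrays below the other 4, and 1 gene (0.00895%), Aqp4 itself, had a gap of 1 or more. These counts describe the choice of the gene and are no test of it. The values above are as deposited, with no background subtracted in this work. After subtraction of the 10th percentile of each array, Aqp4 stood at 124, 125, 119 and 111 on the 3 wild-type arrays and the transgenic sham array and at 25.3 and 16.9 on the transgenic TAC arrays, 5.91-fold between the genotypes after TAC. Those low values are about as low as the dim second probe after the same step (8.14 to 22.6), so this fold is uncertain. The size of the difference thus depends on how background is handled, and averaging in the dim second probe (the median over probes) gives -0.65 after TAC.

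The second Aqp4 probe (ILMN_1227682), which the platform annotation assigns to a cDNA clone and not to a RefSeq mRNA, lay between 50.3 and 64.8 on the 6 arrays. It was below the intensity filter of 58.7, above the array median on 4 of 6 arrays, and its transgenic TAC values of 58.3 and 56.8 fell inside the range of the other arrays. The values of Aqp4 therefore rest on 1 probe.

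**Figure D1:**
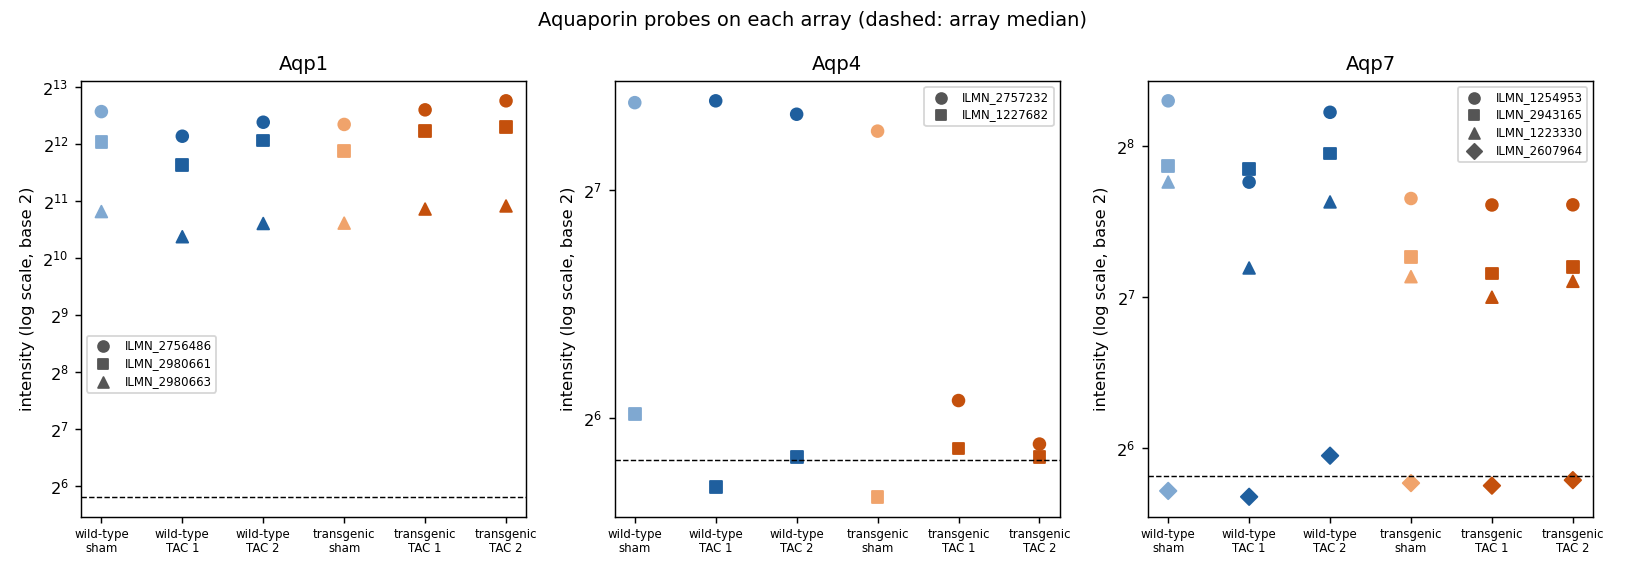
Intensity of each probe of Aqp1 (3 probes), Aqp4 (2) and Aqp7 (4) on each of the 6 arrays, on a log axis of base 2; symbols stand for probes, colours for groups, and the dashed line is the array median. By its brighter probe Aqp4 comes near the array median in both transgenic TAC arrays, the 3 brighter Aqp7 probes are lower on the 3 transgenic arrays, and the 3 Aqp1 probes are high on every array.

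The one tested comparison in which the transgenic TAC arrays take no part in the difference is TAC against sham in wild type. There Aqp4 differed by -0.021 ± 0.21 (SE, 2 TAC arrays against 1 sham, limma adjusted p = 1.00), with a 95% interval of -0.51 to 0.46. The SE includes the spread of the transgenic TAC pair, since the fit pools the groups. The wild-type TAC arrays lay on either side of the sham array, at 0.0080 and -0.051 from it. The sham arrays of the genotypes differed by -0.12, and these have 1 array each and no test. Among transgenic arrays the sham array was the one with low Xist, so the Xist level and surgery cannot be told apart there. The same holds for the Xist level and genotype between the sham arrays. Among the 4 arrays of high Xist, Aqp4 stood at 167 on wild-type sham and 168 on wild-type TAC 1 and at 67.4 and 59.1 on the transgenic TAC arrays, and wild-type TAC 2, with low Xist, stood at 161.

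Aqp7, the glycerol channel, lay lower on all transgenic arrays than on all wild-type arrays, by 3 of its 4 probes, without passing the test. Its brightest probe (ILMN_1254953) had intensities of 315 on wild-type sham, 217 and 299 on wild-type TAC, 201 on transgenic sham and 195 and 196 on transgenic TAC. The transgenic arrays were almost level with each other, whereas the wild-type arrays spread over a range that the TAC 1 array widened. Between the genotypes, with surgery in the model, the log2 difference was -0.47 ± 0.17 (1.39-fold, 3 against 3 arrays, limma adjusted p = 0.304), with a 95% interval of -0.85 to -0.09.

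Probe ILMN_2943165 gave the widest separation of the genotypes: 233, 230.4 and 247 on wild-type sham, TAC 1 and TAC 2, and 154, 143 and 147 on transgenic sham, TAC 1 and TAC 2. The lowest wild-type array, TAC 1, lay well above the highest transgenic array, sham, so the groups did not overlap. When every probe above the filter was tested for itself, this probe differed by -0.68 ± 0.14 (limma adjusted p = 0.101 over 17442 probes, of which 0.453% passed), or 1.60-fold. In this fit 8% of probes had all transgenic arrays below all wild-type arrays. Probe ILMN_1223330 read 217, 146 and 198 in wild type and 141, 128 and 138 in transgenic arrays, and differed by -0.45 ± 0.16 (adjusted p = 0.408). The 3 probes followed each other over the 6 arrays at r = 0.816 to 0.991, as a description over shared arrays. The fourth probe, ILMN_2607964, lay below the filter at 51.2 to 61.9 and had overlapping groups.

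Between the sham arrays Aqp7 differed by -0.65 by the brightest probe, -0.60 by ILMN_2943165 and -0.63 by ILMN_1223330, with 1 array each and no test. Transgenic sham was low in Xist and wild-type sham was not, so the Xist level and genotype cannot be told apart there. After TAC the genotype difference was -0.38 ± 0.23 by the brightest probe (limma adjusted p = 1.00), with transgenic arrays below wild-type arrays as for 16.8% of genes. Dropping wild-type TAC 2 gave -0.15, and dropping TAC 1 gave -0.61. TAC itself gave -0.31 ± 0.28 in wild type and -0.042 ± 0.28 in transgenic arrays (2 TAC arrays against 1 sham in each, limma adjusted p = 1.00 in both), and -0.17 ± 0.18 over both genotypes (adjusted p = 0.807). The wild-type value came mostly from TAC 1, at -0.54 from sham, while TAC 2 lay at -0.076. Over both genotypes it was -0.057 when wild-type TAC 1 was dropped, -0.042 when wild-type sham was and -0.31 when transgenic sham was. In wild type 38.7% of genes, and in transgenic arrays 30%, had both TAC arrays below sham, as Aqp7 did in each by its brightest probe. The difference of the TAC responses was 0.26 ± 0.40 (adjusted p = 1.00), 0.034 or 0.50 without wild-type TAC 1 or TAC 2, and 0.96 with Xist as a covariate. The same covariate turned the transgenic TAC value to 0.43 and moved the wild-type TAC value to -0.53 and the genotype value after TAC to -0.14. These TAC values are by the brightest probe. By ILMN_2943165 the TAC value in wild type was 0.033, with TAC 2 above sham, and the difference of the TAC responses was -0.12. By ILMN_1223330 these were -0.35 and 0.27.

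Neither Aqp1 nor Aqp7 passed at an adjusted p of 0.05 between genotypes over both surgeries, where 0.949% of the 11167 tested genes passed, and 8.55% of genes had all 3 transgenic arrays below all 3 wild-type arrays as Aqp7 did. With each array left out in turn the difference of Aqp7 stayed between -0.63 and -0.36. Leaving out wild-type TAC 2 and transgenic sham, the arrays of low Xist, gave -0.15 (adjusted p = 1.00).

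Aqp1, the water channel of endothelium, was far above the array median on every array. Its brightest probe (ILMN_2756486) had intensities of 6099.6 on wild-type sham, 4521 and 5360.1 on wild-type TAC, 5217 on transgenic sham and 6231 and 6953 on transgenic TAC. TAC arrays thus lay below sham in wild type, as for 38.7% of tested genes, and above sham in transgenic mice, as for 31.1%; of 17442 probes 7.77% did both. The other probes read 4201, 3189, 4295, 3782, 4799 and 5053 (ILMN_2980661) and 1808, 1332, 1564, 1571, 1864 and 1936 (ILMN_2980663) on the same arrays in the same order. By ILMN_2980661 the wild-type TAC 2 array lay just above its sham array, so the downward direction in wild type is not shared by all probes. The 3 probes followed each other at r = 0.928 to 0.985.

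After TAC, Aqp1 averaged 12.27 ± 0.17 (SD, n = 2) in wild type and 12.68 ± 0.11 (SD, n = 2) in transgenic arrays on the log2 scale. The arrays of the genotypes did not overlap, as for 15.5% of tested genes in this direction. The difference was 0.42 ± 0.15 (1.34-fold, limma adjusted p = 0.710), with a 95% interval of 0.08 to 0.76, and it ranged from 0.30 to 0.54 with 1 array left out. No test of Aqp1 or Aqp7 passed here, where 0.206% of genes did.

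Within wild type, TAC against sham gave -0.31 ± 0.18 for Aqp1 and, within transgenic arrays, 0.34 ± 0.18 (2 against 1 array each, limma adjusted p = 1.00 and 0.991). The difference of these responses was 0.64 ± 0.26 (95% interval 0.049 to 1.24, limma adjusted p = 1.00). With Xist as a covariate it was 0.98, and the transgenic TAC response was 0.56. Without wild-type TAC 1 the wild-type value was -0.19. In each of these 3 comparisons limma called 0 of 11167 genes (0%), and 398 (3.56%), 543 (4.86%) and 183 (1.64%) genes had an unadjusted p under 0.05. Over both genotypes TAC gave 0.013 ± 0.16 (95% interval -0.34 to 0.37, adjusted p = 0.989), where 0.00895% of genes passed, and the transgene gave 0.20 ± 0.15 over both surgeries (adjusted p = 0.666). The TAC value turned to -0.31 without transgenic sham, to -0.067 without transgenic TAC 2 and to 0.34 without wild-type sham. The genotype value was 0.42 without either sham array, 0.098 without transgenic TAC 2, 0.073 without wild-type TAC 1 and 0.54 without both arrays of low Xist. The interval for TAC leaves room for a change of up to 1.29-fold up or, at its lower end, down to 0.789 of the sham level.

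**Figure D2:**
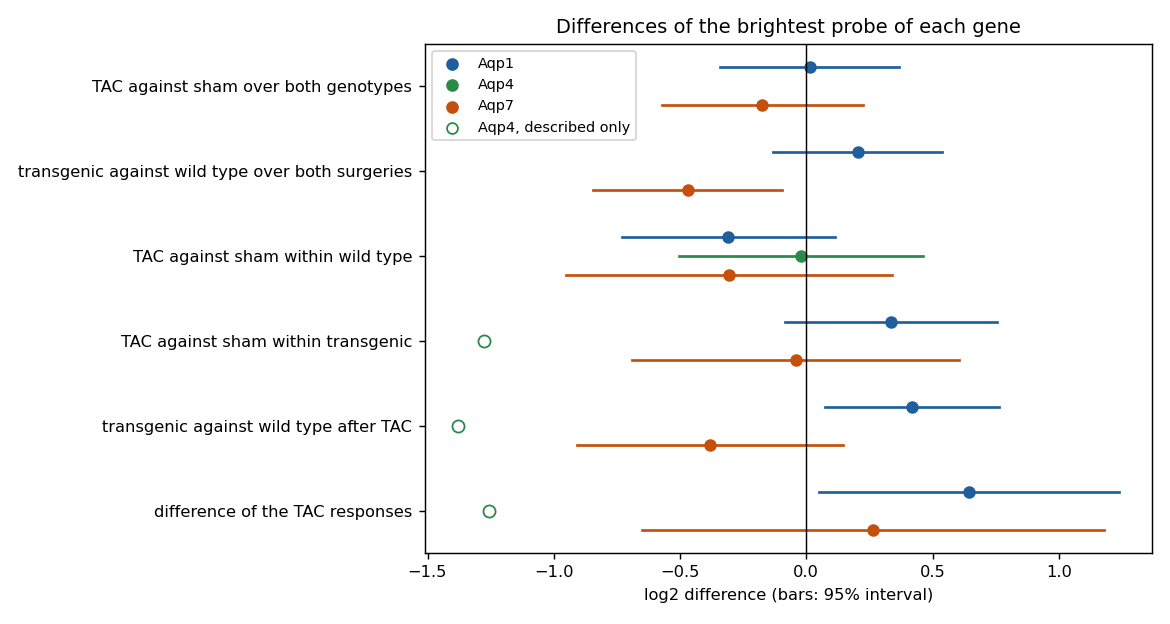
Log2 difference of the brightest probe of each gene in 6 comparisons, with 95% intervals from limma as bars. Open circles are Aqp4 values given without a test because they chose the gene. Aqp4 is not drawn for TAC over both genotypes or for the genotypes over both surgeries. The Aqp7 interval lies below 0 for the genotypes over both surgeries and the Aqp1 intervals above 0 after TAC and in the lowest row (TAC responses compared), before adjustment over all genes.

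In bulk RNA, fewer cells of a type and less RNA per cell cannot be told apart, so markers of the cells that carry these channels are given beside them. Sums below run over all genes of a list on the arrays, tested or not. Endothelial markers such as Pecam1 and Cdh5 had 11 of 12 members tested. The fitted transgenic level was lower than wild type for 10 of 11 of them (median -0.24 against -0.010 over all genes), with 0 of 11 past the test, while Aqp1 was at 0.20. All 11 markers had overlapping arrays of the genotypes. Their summed intensity was 24113 on wild-type sham, 27538 and 27492 on wild-type TAC 1 and TAC 2, 21381 on transgenic sham and 19764 to 28525 on transgenic TAC. Kdr lay below the filter. With TAC over both genotypes 10 of 11 lay higher (median 0.21), again with 0 past the test. The part of endothelial content in the Aqp1 values was not tested.

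Capillary markers, 4 of 5 tested and Fabp4 below the filter, were at 5695 in summed intensity on wild-type sham, 4063 to 5130.1 on wild-type TAC, 4086 on transgenic sham and 3766 to 4857 on transgenic TAC. Of these, Gpihbp1, which holds lipoprotein lipase on the capillary wall, differed by -0.42 ± 0.16 (adjusted p = 0.354) and the carbonic anhydrase gene Car4 by -0.41 ± 0.16 (adjusted p = 0.389) between genotypes, without passing in limma. Without both arrays of low Xist these were -0.090 and -0.11, and Car4 was -0.25 without either sham array. Erythroid markers, 4 of 10 tested, had a summed intensity of 42674 to 46315 over all arrays. Hba-a1 and Hbb-bt, which lie near the highest value of the arrays, carry most of that sum. Alas2 ran from log2 8.98 to 9.90 and Slc4a1 from 6.28 to 6.98 over the arrays. None of these 4 passed in any of the 6 comparisons.

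Of 8 adipocyte markers, given here beside Aqp7, 3 were tested (Cidea, Adipoq and Lep), with 0 past the test, and Plin1, Cidec, Retn and Pck1 lay below the filter. Their summed level was 1401 on wild-type sham, 1249 to 1389 on wild-type TAC, 1079 on transgenic sham and 1096 to 1344 on transgenic TAC. Adipoq stood at log2 8.09, 7.27 and 6.44 in wild type and 6.69, 7.61 and 7.06 in transgenic arrays, with overlapping groups. On wild-type TAC 2, where Aqp7 was second highest by its brightest probe, Adipoq was lowest of the 6 arrays, Cidea was highest (10.05) and the sum was second highest, at 1389. The part of adipocytes in the Aqp7 values was not tested. Of 6 tested smooth muscle and pericyte markers (7 listed), all 6 lay lower in transgenic arrays (median -0.44 against -0.010 over all genes). For 2 of them the genotypes did not overlap, as for 8.55% of tested genes in this direction. The test was passed by 0.949% of all genes and by 1 of these 6 markers. Their sum, to which Acta2 gives the most on every array but transgenic TAC 2, was 13234 on wild-type sham, 13569 to 21376 on wild-type TAC, 7463 on transgenic sham and 5634 to 8926 on transgenic TAC. Acta2, the smooth muscle actin gene, fell by 1.67 ± 0.23 on the log2 scale between genotypes (limma adjusted p = 0.0118). That call was lost by the median over its probes (0.195) and without both arrays of low Xist (0.0925). Their part, and that of capillary endothelium, in the Aqp7 values was not tested.

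For Aqp4, which fast skeletal muscle also carries, skeletal muscle markers had 5 of 9 tested, with Myh1, Myh4 and Tnnt3 below the filter. Their sums were 581 on wild-type sham, 564 to 579 on wild-type TAC, 518 on transgenic sham and 495 to 538 on transgenic TAC, and 0 of 5 passed the test. Between genotypes 4 of 5 lay lower in transgenic arrays (median -0.21 against -0.010 over all genes). For 2 of them the arrays did not overlap, as for 8.55% of tested genes in this direction. After TAC 4 of 5 lay lower (median -0.17), 3 of them without overlap, as for 16.8% of genes. Glia and nerve markers, 2 of 6 tested with Gfap and S100b below the filter, had sums of 282 on wild-type sham, 281 to 287 on wild-type TAC, 346 on transgenic sham and 238 to 280.4 on transgenic TAC. The skeletal muscle sums run over 8 genes and the glia and nerve sums over 4, mostly dim ones, with no background subtracted. The part of skeletal muscle, glia and nerve in the Aqp4 values was not tested. Of the remaining marker lists, fibroblast (7 tested), mesothelial (1) and lung (1), none had a gene past the test in any of the 6 comparisons.

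Aqp4 is held in the membrane by the dystrophin complex, and of 14 genes of that complex 10 were tested. None passed in any of the 6 comparisons. Between genotypes 4 of 10 lay higher and 6 lower, with a median of -0.020 against -0.010 over all genes, and after TAC the split was 5 and 5. The beta-sarcoglycan gene Sgcb had the largest value, 0.61 ± 0.15 between genotypes (limma adjusted p = 0.127), with 10.70 to 10.75 in wild type, 11.48 and 11.54 on transgenic sham and TAC 1, and a transgenic TAC 2 value between these; 7.59% of genes had all transgenic arrays above all wild-type arrays. Its adjusted p was 0.00700 without transgenic TAC 2. The alpha-dystrobrevin gene Dtna stood at 0.24 ± 0.13 there (adjusted p = 0.547), and at 0.14 without wild-type TAC 1. With TAC over both genotypes, Agrn, the agrin gene, was at 0.46 ± 0.17 and the alpha-sarcoglycan gene Sgca at -0.34 ± 0.13 (adjusted p = 0.457 and 0.491). Dmd and Sspn lay below the filter. Without both arrays of low Xist 0 of 10 passed as well.

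Water flow through aquaporins follows the ions and osmolytes that set cell volume, and 10 of 17 genes of that group were tested. Lrrc8a, an essential subunit of the volume-regulated anion channel, fell by 0.82 ± 0.14 on the log2 scale between genotypes (3 against 3 arrays, limma adjusted p = 0.0377). It stood at 9.19, 9.33 and 9.44 in wild-type sham, TAC 1 and TAC 2 and at 8.55, 8.57 and 8.37 in the transgenic ones, with no overlap, as for 8.55% of genes in this direction. It was 1 of 10 members past the test, where 0.949% of all genes passed. The call was lost when any wild-type array was dropped (adjusted p = 0.229 for sham, 0.202 for TAC 1 and 0.264 for TAC 2) or when transgenic sham was (0.214), and the median over its probes gave -0.29 (0.492). It was also lost with every probe tested (0.0719), with cyclic loess (0.0519), with Xist as a covariate (0.0982) and without both arrays of low Xist (1.00).

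Stk39, a kinase that acts on sodium and chloride cotransporters, was at -0.59 ± 0.15 (adjusted p = 0.137; 0.0479 without transgenic TAC 2), and Atp1b1, a sodium pump subunit, was at 0.39 ± 0.13 (adjusted p = 0.263; 0.0194 without transgenic TAC 2). Neither had overlapping genotypes, where 8.55% of genes lay lower and 7.59% higher without overlap in transgenic arrays. Stk39 was at -0.31 by the median over its probes, and Atp1b1 at 0.26 without either sham array. In all, 6 of 10 lay higher and 4 lower in transgenic arrays, with a median of 0.14. With TAC over both genotypes 6 of 10 lay higher and 0 passed. Within wild type 7 of 10 lay higher with TAC, and within transgenic arrays 2 of 10 did.

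Aqp7 passes glycerol, and 11 of 13 genes that make, release or rebuild triglyceride or use glycerol were tested. Between genotypes 9 of 11 lay lower (median -0.18 against -0.010 over all genes), and 0 of 11 passed. The triglyceride lipase gene Pnpla2 was at -0.35 ± 0.12, the acyltransferase gene Dgat2 at -0.48 ± 0.16 and Agpat2 at -0.33 ± 0.14, with adjusted p of 0.279, 0.285 and 0.422. Dgat2 was at -0.31 without transgenic TAC 2, and Agpat2 at -0.19 by the median over its probes. With TAC over both genotypes 10 of 11 lay lower with a median of -0.073, again with 0 past the test. The genotypes differed here: within wild type 10 of 11 lay lower (median -0.21). Within transgenic arrays 6 of 11 lay higher and 5 lower (median 0.044). Gk, the glycerol kinase gene, was not analysed here. Without both arrays of low Xist the median between genotypes was -0.015, with 6 of 11 lower.

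Of the genes for vasopressin, angiotensin and aldosterone signalling, 4 of 12 were tested and 0 passed; 7 others lay below the filter, Avpr2 and the mineralocorticoid receptor gene Nr3c2 among them. Ace, the angiotensin-converting enzyme gene, was at 0.87 ± 0.17 with TAC over both genotypes (1.82-fold, limma adjusted p = 0.226, 0.0323 without transgenic TAC 1) and higher in 4 of 4 TAC arrays than in both sham arrays, as for 8.39% of tested genes. By the median over its probes Ace was at 0.099. The vasopressin receptor gene Avpr1a was at -0.68 ± 0.25 (adjusted p = 0.448; -0.45 without transgenic sham). Agt, the angiotensinogen gene, was at -0.38 ± 0.09 between genotypes (adjusted p = 0.115) with no overlap, as for 8.55% of genes in this direction. After background subtraction Agt was at -0.96.

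**Figure D3:**
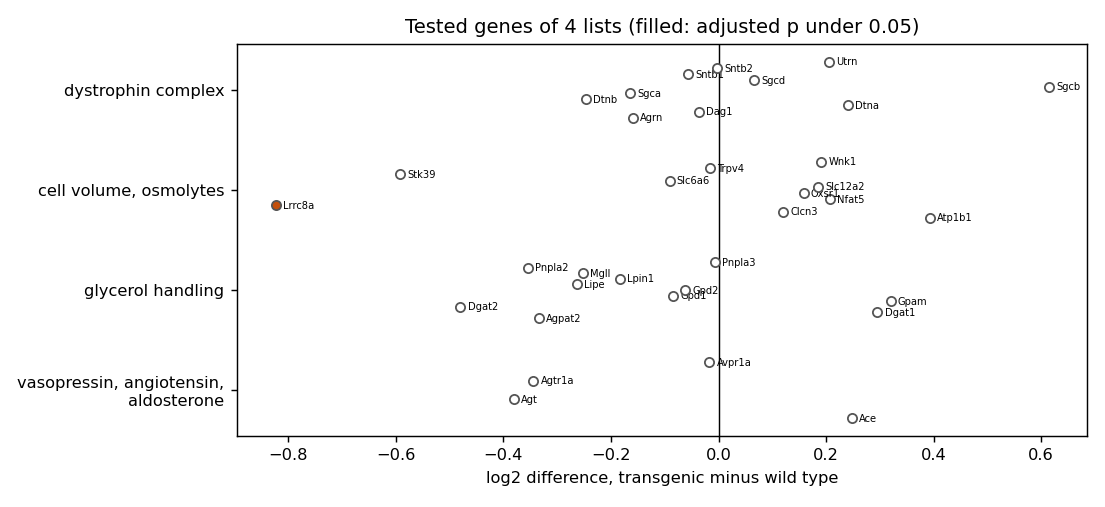
Log2 difference of transgenic minus wild type over both surgeries for each tested gene of 4 lists; filled points passed the test. Lrrc8a at -0.82 is the single filled point, and the glycerol handling genes lie mostly left of 0.

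The genes whose pattern over the 6 arrays was most like that of Aqp4 were the potassium channel gene Kcnh2 (r = 0.959), the galectin gene Lgals4 (0.945), the kinase gene Wnk2 (0.936), the perinatal myosin heavy chain gene Myh8 (0.936) and the potassium channel gene Kcnd2 (0.933). The measure was Pearson's r over 6 arrays, among the 885 tested genes whose arrays span log2 1 or more. It is a description with no test, and the transgenic TAC arrays that chose Aqp4 weigh most in it. Spearman's correlation, which uses ranks only, was 0.6, 0.829, 0.657, 0.486 and 0.943 in the same order. Kcnh2 stood at 9.71, 9.32 and 9.40 in wild type, at 9.49 on transgenic sham and at 8.65 and 8.58 on the transgenic TAC arrays. Of these 5, Myh8 had the flattest values on the first 4 arrays (9.86, 9.99, 10.06 and 10.04) before 8.92 and 9.25. Kcnd2 already lay lower on the transgenic sham array, at 7.78 against 8.12 to 8.68 in wild type, before 7.13 and 6.69.

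**Figure D4:**
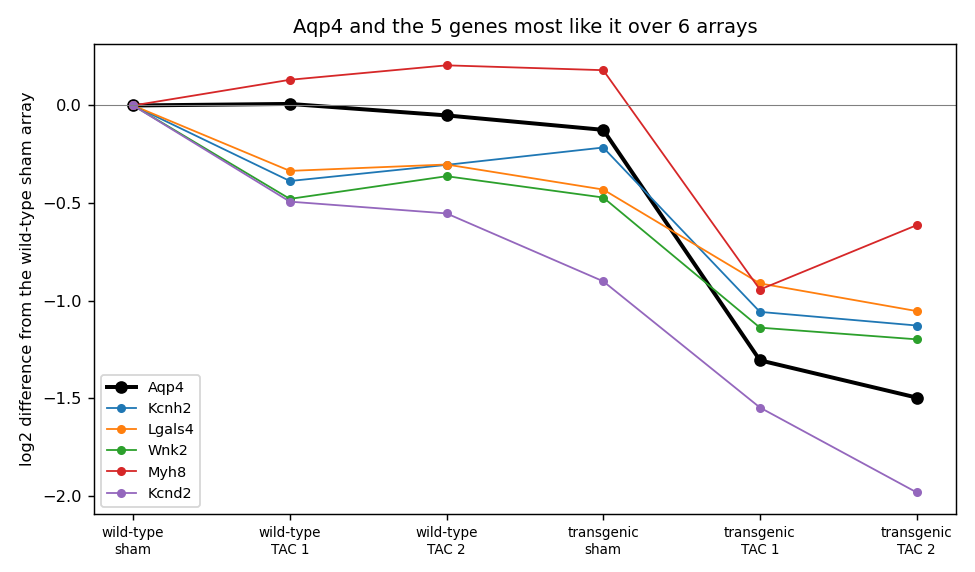
Log2 level of Aqp4 (thick line) and of the 5 genes most like it, each relative to the wild-type sham array; lines join the arrays of 1 gene and carry no order in time. All 6 genes are lowest on the transgenic TAC arrays, and Aqp4 has the smallest spread among the other 4 arrays.

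For Aqp7 the most alike genes were Neurl1a (r = 0.972), Rom1 (0.959) and Alkbh7 (0.957). Neurl1a ran at 8.99, 8.39 and 8.82 on wild-type sham, TAC 1 and TAC 2 and at 8.08, 7.94 and 8.17 on the transgenic arrays, so it repeats the dip at wild-type TAC 1. For Aqp1 the closest were Megf9 (0.819), Uba6 (0.815) and Gm1673 (0.751), with r lower than for the other members. Their Spearman values were 0.6, 0.486 and 0.657.

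Among the 9 other aquaporin genes on the arrays, the probes of Aqp6, Aqp9, Aqp12 and Mip, the lens aquaporin, lay below the array median on all 6 arrays. The brighter probes of Aqp2, Aqp3, Aqp5 and Aqp11 lay between 50.3 and 82.3, near the array median. Aqp8, a channel for water and ammonia that is also found in mitochondria, was the exception: its brighter probe read 101 on wild-type sham, 264 and 194 on wild-type TAC, 136 on transgenic sham and 245 and 153 on transgenic TAC. All 4 TAC arrays lay above both sham arrays, a pattern that the percentage given for Ace also covers. The second Aqp8 probe read 98.2, 196, 169, 115, 209 and 129 in the same order. The difference was 0.83 ± 0.24 (1.78-fold, 4 TAC against 2 sham arrays, limma adjusted p = 0.373) and did not pass. It was 0.51 without wild-type sham and 1.38 without both arrays of low Xist.

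**Figure D5:**
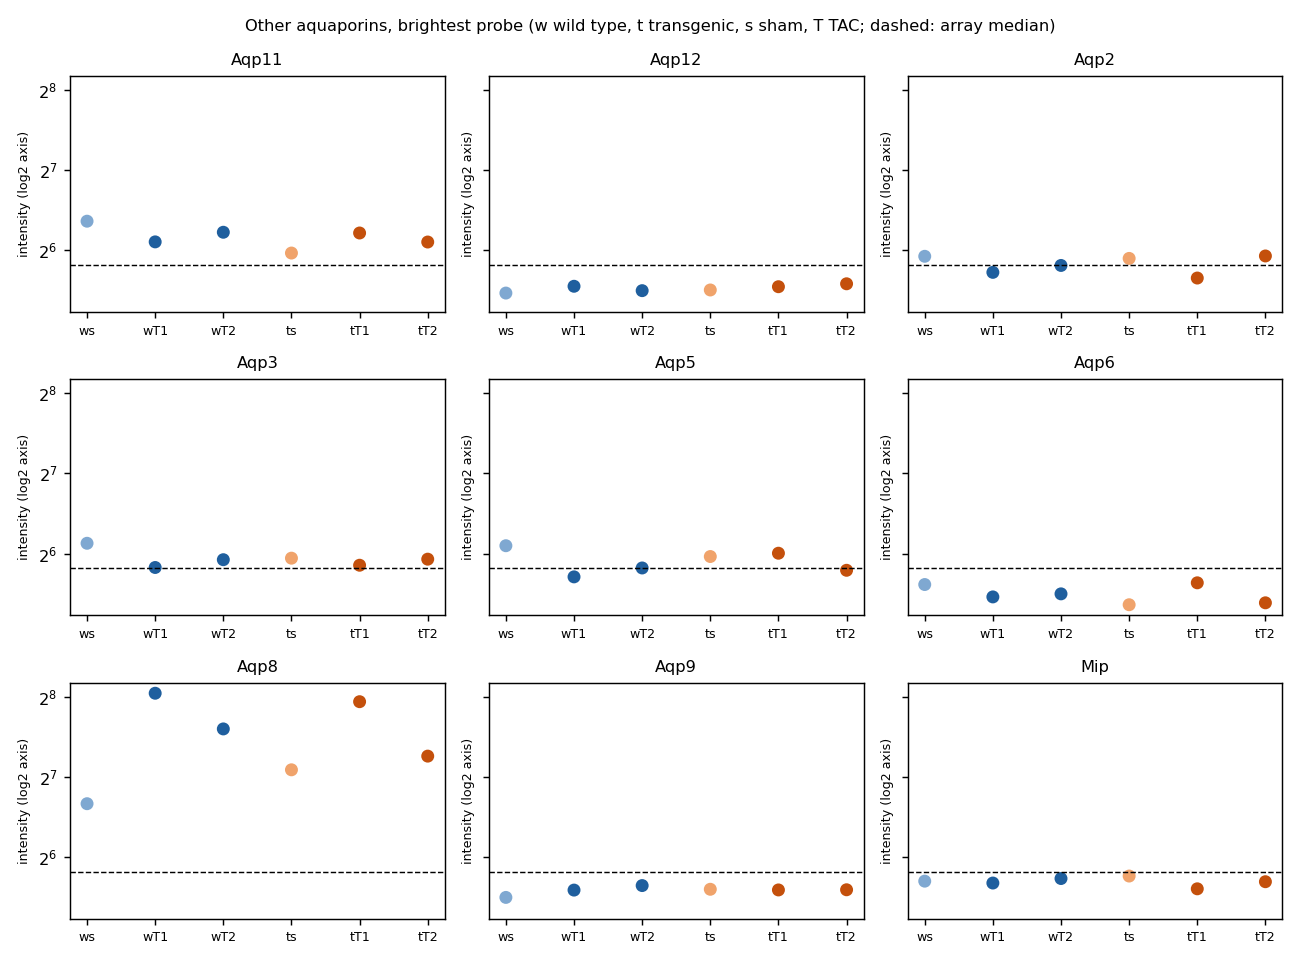
Intensity of the brightest probe of 9 other aquaporin genes on each array, on a log axis of base 2 shared by all panels, with the array median dashed. Aqp8 lies above the median on every array and higher on the 4 TAC arrays than on the 2 sham arrays, while the rest stay near or below the median.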

How the data were processed

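The deposited series table holds linear intensities, 1 for each probe on each array, without stated software or background step. The sorted columns differed by at most 0.00644 (log2), as after quantile normalization, and no further normalization was applied. Log2 was taken here from the deposited intensities after raising 12 values to a floor of 32. Annotation gave 34885 of 45281 probes 1 gene symbol, 18 several and 10378 none. The brightest probe stood for a gene, and the 11167 of 19057 genes above the 50th percentile (58.7) were tested.

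Models were fitted with limma 3.58.1 in R 4.3.3 (lmFit, then eBayes with trend), and p-values were adjusted by Benjamini-Hochberg over all tested genes, with a threshold of 0.05. Surgery plus genotype left 3 residual degrees of freedom and the model of 4 groups left 2; the spread of a lone sham array was taken to equal that of the TAC groups. Errors are SE unless called SD. Scripts were tested on simulated data. Members and 15 lists were chosen with earlier results of these data known. Named genes are the members, other aquaporins, list members among the 4 of smallest p, marker examples and the genes most like a member; list genes named as untested, Adipoq, Myh6, Tnni3, Pecam1 and Cdh5 were named as markers. Alternatives changed the probe choice, filter, background, normalization, trend, Xist handling, replicate block and arrays used.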

Additional observations from a re-analysis of the deposited data

Results flagged for a closer look

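By 2 of the 3 Aqp1 probes, both wild-type TAC arrays lay below the wild-type sham array and both transgenic TAC arrays lay above the transgenic sham array, out of 7 member probes examined. Of 17442 probes above the filter, 7.77% had this pattern. The TAC response in transgenic hearts exceeded that in wild-type hearts by 0.64 on the log2 scale for ILMN_2756486 and by 0.60 for ILMN_2980663. By the remaining probe, ILMN_2980661, it was 0.56, with wild-type TAC 2 slightly above sham. The test of the difference itself did not pass in limma (adjusted p = 1.00 for each probe).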

How the results depend on the processing

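No alternative brought a tested value of Aqp1, Aqp4 or Aqp7 past an adjusted p of 0.05 (185 values, lowest 0.132). These values and the sign changes below use 1 value per gene and leave out its dimmer probes. Of those, ILMN_2943165 of Aqp7 had a limma adjusted p of 0.101 between genotypes. Its sign was opposite to the brightest probe within wild type (0.033) and for the difference of the responses (-0.12). So was that of ILMN_2980663 of Aqp1 with TAC over both genotypes (-0.025). The sign turned for Aqp1 with TAC over both genotypes without transgenic sham or without transgenic TAC 2 (range without 1 array -0.31 to 0.34), with Xist as a covariate (-0.032) and without both arrays of low Xist (-0.43), for Aqp4 in wild type without TAC 2 or without both arrays of low Xist (0.0080 in both; range without 1 array -0.051 to 0.0080), and for Aqp7 in transgenic arrays with Xist as a covariate (0.43). Aqp4 moved with background subtraction, to -2.42 within transgenic arrays, -2.56 after TAC and -2.39 for the difference of the responses, and with the median over probes, which averages in the dim probe, to -0.54, -0.65 and -0.40; its sham difference was then -0.24. Without 1 array these Aqp4 values ranged from -1.37 to -1.18, -1.47 to -1.28 and -1.35 to -1.16. The filter at the 75th percentile left Aqp4 untested.

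Counts of genes past the test, 1 with TAC over both genotypes, were 2 without a filter, 2 at the 75th percentile and 0 without trend, with Xist or without both arrays of low Xist, and 0 to 37 without 1 array. Between genotypes the 106 became 51 by the median over probes, 44 at the 75th percentile, 54 with Xist, 0 without both arrays of low Xist and 24 to 473 without 1 array. With the replicate block on the 4 TAC arrays it was 61. After TAC the 23 became 5 by the median over probes, 9 with every probe tested, 38 unfiltered, 11 at the 75th percentile, 10 with cyclic loess, 8 without trend, 0 without both arrays of low Xist, 51 with the replicate block and 0 to 189 without 1 array. The 0 within wild type became 5 unfiltered, 1 with background subtracted, 10 with Xist and 0 to 11 without 1 array; within transgenic arrays it became 1 unfiltered and 0 to 239; for the difference of the responses 5 with Xist and 0 to 1. The TAC numbers 1 and 2 did not pair arrays across genotypes (correlation of deviations -0.029 over 11167 genes), and the replicate block changed no call of a member (Aqp1 after TAC 0.42, Aqp7 -0.38). With the block on the TAC arrays Lrrc8a between genotypes had an adjusted p of 0.196 in limma. The cause of these changes was not tested. With 6 arrays, and 1 per sham group, the number of arrays limits the precision of every value.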
